A study of Mus musculus with 6 samples.

Results

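The 10 immediate early response genes Fos, Fosb, Jun, Junb, Atf3, Egr1, Nr4a1, Ier2, Dusp1 and Zfp36 were followed in the atria of mice fed a high-fat diet (HFD) or a control diet. They were taken by gene name from the 43432 genes of the deposited table, where each name had 1 row, and the rule that picks them is the name alone. RNA sequencing was done on right and left atrial tissue of wild-type C57/Bl6J mice, 3 samples on the HFD and 3 on control chow. Feeding began at an age of 6 weeks and lasted 10 weeks. The samples are numbered 1 to 3 within each diet and are called mice here, since nothing in the labels says that animals were pooled. Titles decided which diet a sample was on, since the deposited columns carry the same names. The treatment entry of all 6 samples names the other diet. If the titles were wrong, every difference below would change its sign.

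Immediate early genes are switched on within minutes of a stimulus, without new protein synthesis, by transcription factors already present in the cell. Growth factors, stretch, ischemia, calcium and catecholamines act on them through MAP kinases, serum response factor (SRF) with its TCF partners, and CREB. Their mRNAs are short-lived, so that their levels rise and fall within hours of a stimulus. FOS, FOSB, JUN and JUNB pair to form the AP-1 transcription factor, ATF3 is a stress-induced member of the same bZIP superfamily, EGR1 is a zinc finger factor and NR4A1 an orphan nuclear receptor. DUSP1 is a phosphatase that switches off MAP kinases, ZFP36 (tristetraprolin) binds AU-rich mRNAs and speeds their decay, and IER2 is an early response nuclear protein.

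The libraries held between 15874251 and 28971508 reads assigned to genes, and the members were counted with between 22 reads (Fosb in HFD mouse 2) and 2861 reads (Nr4a1 in HFD mouse 3). Transcripts of the mitochondrial genome took between 19.5% of reads, in HFD mouse 3, and 30.7%, in control mouse 2. The atrial markers were abundant in every library, with Nppa, the gene of atrial natriuretic peptide, at 171702 to 333975 normalized counts. HFD mouse 3 and control mouse 3 held the 2 highest values in 8 of the 10 members, so the differences of the members between the diets are given with all 6 mice and again without these 2. Values are normalized counts, which are read counts divided by 1 size factor per library. In bulk tissue, fewer cells of a type and less RNA per cell cannot be told apart.

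None of the 10 genes differed between the diets after adjustment over all 15275 genes tested (limma, Benjamini-Hochberg adjusted p under 0.05). Over all genes tested, 114 passed (0.746%). At an unadjusted p under 0.05, 1 member passed (Junb, higher on the HFD), against 12.2% of all genes. On the read counts recovered from the table, edgeR called 0 of the 10 and DESeq2 called 0 of the 10, against 0.57% and 3.08% of all genes, and with either tool Junb alone had an unadjusted p under 0.05. The median log2 fold change of the 10 members was -0.063, HFD over control, against 0.0049 over all genes tested, with 4 members higher and 6 lower on the HFD. The 2 diets overlapped in all 10 genes, while over all genes tested they did not overlap in 18%.

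Among the AP-1 genes, Fos had 207, 255 and 1240.3 normalized counts in HFD mice 1, 2 and 3, and 343, 261 and 1262 in control mice 1, 2 and 3. Mouse 3 of each diet was thus high, the other 4 mice were low, and the means on the 2 diets were close, at 567 ± 583 for the HFD against 622 ± 556 for control (SD, n = 3). The log2 fold change of Fos was -0.26 ± 0.68 (SE, adjusted p = 0.922). Fosb, the least abundant member, had 39.2, 22.4 and 61.3 normalized counts on the HFD and 36.9, 36.3 and 73.2 on the control diet. As in Fos, mouse 3 was the highest on each diet, while HFD mouse 1 lay just above control mice 1 and 2, and the log2 fold change was -0.28 ± 0.42 (SE, adjusted p = 0.848). Fosb had between 22 and 67 reads per library, so counting error weighs more on it than on the others.

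Jun had a narrower range, with 1478, 1202 and 2035 normalized counts on the HFD and 1467, 1117 and 1384 on the control diet. HFD mouse 3 lay clearly above the control mice and HFD mouse 1 just above them, and the log2 fold change was 0.22 ± 0.19 (SE, adjusted p = 0.684). Junb had 561, 507 and 968 normalized counts on the HFD and 429, 354 and 510.4 on the control diet. The diets came closest to separating in this gene, since 1 HFD mouse lay just below the highest control mouse. Its means were 678 ± 252 and 431 ± 78.3 (SD, n = 3), and its log2 fold change of 0.61 ± 0.23 (SE, adjusted p = 0.327) did not pass the threshold. The exact permutation test over the 6 mice gave p = 0.2 for Junb, two-sided, where the smallest p that 3 against 3 allows is 0.1.

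Atf3 had 85.4, 89.7 and 415 normalized counts on the HFD and 327, 125 and 699.5 on the control diet. Within each diet mouse 3 was highest, and HFD mice 1 and 2 were below all 3 control mice. The means were 197 ± 189 and 384 ± 292 (SD, n = 3). The log2 fold change was -1.05 ± 0.66 (SE, adjusted p = 0.576), the largest in size of the 10 members, with a 95% interval from -2.51 to 0.41.

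Egr1, the zinc finger factor, had 419, 623 and 1574 normalized counts on the HFD and 654, 598 and 1667 on the control diet. Both mice numbered 3 were again more than 2-fold above the others of their diet, and the log2 fold change was -0.22 ± 0.47 (SE, adjusted p = 0.90). Nr4a1, the nuclear receptor gene, had 697, 656 and 3249.6 normalized counts on the HFD and 645, 533 and 1183 on the control diet. Here HFD mouse 3 was 2.75-fold above control mouse 3, while the other 4 mice lay between 533 and 697. The means of 1534 ± 1486 and 787 ± 347 (SD, n = 3) differ through 1 library, and the log2 fold change was 0.62 ± 0.53 (SE, adjusted p = 0.694) with HFD mouse 3 and -0.13 ± 0.27 (SE, adjusted p = 0.860) without it.

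The genes of the 2 feedback proteins and Ier2 spanned a narrower range. Dusp1 had 1586, 1374 and 1919.6 normalized counts on the HFD and 1380.6, 1543 and 2248 on the control diet. The highest value was in mouse 3 of each diet, and the log2 fold change was -0.065 ± 0.19 (SE, adjusted p = 0.931). Zfp36 had 703, 631 and 1203 normalized counts on the HFD and 542, 585 and 741 on the control diet. Its 2 highest mice were those numbered 3, and its log2 fold change was 0.39 ± 0.23 (SE, adjusted p = 0.535). Ier2 had 248, 263 and 471 normalized counts on the HFD and 330.3, 299.8 and 353 on the control diet. HFD mice 1 and 2 lay below all control mice and HFD mouse 3 above them, so that the means were both 328 and the log2 fold change was -0.061 ± 0.23 (SE, adjusted p = 0.951).

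**Figure D1:**
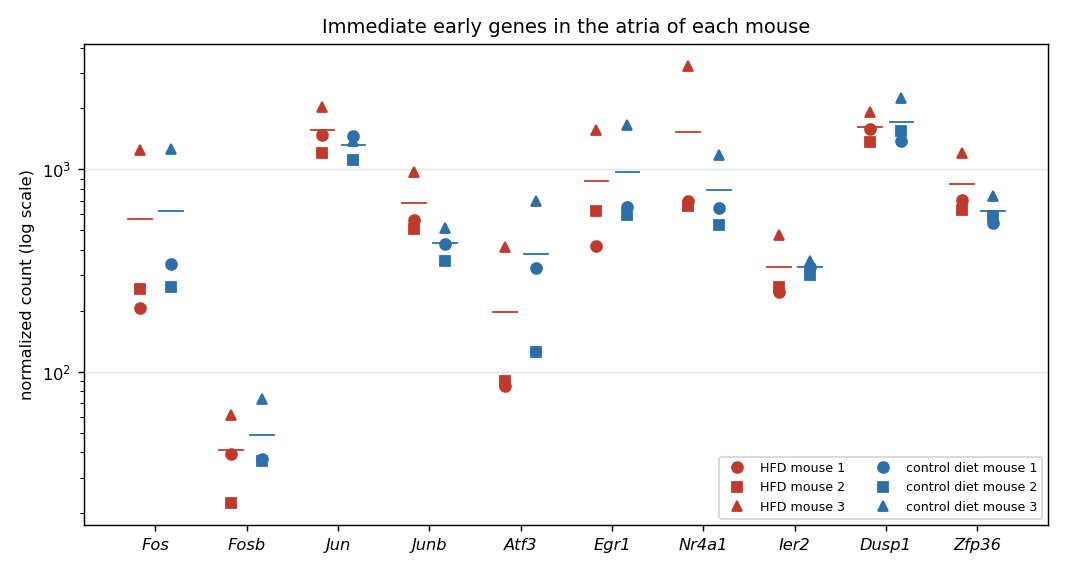
Normalized counts (log axis) of the 10 immediate early genes in each mouse, HFD in red and control diet in blue, with circles, squares and triangles for mice 1, 2 and 3 and horizontal lines at the mean of each diet (n = 3). The highest point of every gene is a triangle, and in Fos, Atf3, Egr1 and Nr4a1 both triangles lie far above the other mice of the same diet.

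Divided by the length of their exons, Dusp1 was the most abundant member at 506 normalized counts per kb over the 6 mice, followed by Jun at 454, Nr4a1 at 331 and Fos at 253. Junb (241), Ier2 (215), Zfp36 (212), Egr1 (206) and Atf3 (135) followed in normalized counts per kb, and Fosb was lowest at 7.19. Fos, Junb, Ier2, Zfp36 and Egr1 lay within a narrow band of levels per kb, and for Fos and Egr1 the spread between mice was far wider than that band, so their places in the order are not separated. Without HFD mouse 3 the level of Nr4a1 was 212 normalized counts per kb, next to Junb at 205, Fos at 198, Ier2 at 196 and Zfp36 at 185, so its place above them rests on that library.

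The members had in common which mice were highest, while none differed between the diets after adjustment. The order of the remaining mice varied from member to member. The highest of the 6 values was in a mouse numbered 3 for 10 of the 10 members, HFD mouse 3 for Jun, Junb, Nr4a1, Ier2 and Zfp36, and control mouse 3 for Fos, Fosb, Atf3, Egr1 and Dusp1. Over all genes tested, 35.2% had their highest value in one of these 2 mice. In 8 of the 10 members these 2 mice held both of the 2 highest values, the exceptions being Jun and Junb, against 5.22% of all genes tested. The pair of mice was singled out after the values were seen. Same-numbered mice share nothing else in the labels, and the comparison is a description of these 6 libraries.

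The size of the step differed between the members. HFD mouse 3 was 5.37-fold above the mean of the other 2 HFD mice in Fos, 4.8-fold in Nr4a1, 4.73-fold in Atf3 and 3.02-fold in Egr1, but only 1.52-fold in Jun and 1.3-fold in Dusp1. Control mouse 3 was 4.18-fold above the mean of the other 2 control mice in Fos, 3.10-fold in Atf3, 2.66-fold in Egr1, 2.01-fold in Nr4a1 and 2.00-fold in Fosb. In Jun it was 1.07-fold and in Ier2 1.12-fold above them. Fos, Atf3, Egr1 and Nr4a1 thus had steps of 2.01-fold or more in both mice, and Fosb of 1.99-fold and 2.00-fold. Jun, Junb, Ier2, Dusp1 and Zfp36 had steps under 2-fold in both mice.

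The spread between mice of the same diet was correspondingly wide. Pooled over both diets, the SD of log2(normalized count + 1) was 1.31 for Fos, 1.27 for Atf3, 1.02 for Nr4a1 and 0.90 for Egr1, against a median of 0.22 over all genes tested. Each of these 4 values was larger than those of at least 99.3% of the 1000 tested genes closest in mean level. The other members had SDs from 0.31 (Jun and Dusp1) to 0.64 (Fosb), each above at least 83.9% of the 1000 genes closest in level. With spreads of this size the intervals of the diet difference were broad, and for Fos the 95% interval ran from a 0.295-fold to a 2.36-fold level on the HFD relative to control. For Dusp1 the interval was narrower, from 0.718-fold to 1.27-fold.

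**Figure D2:**
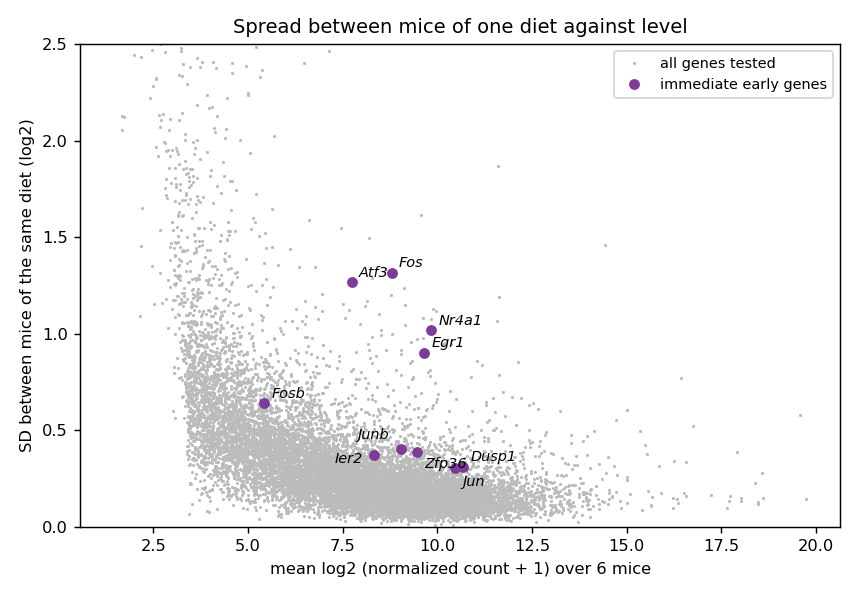
SD of log2(normalized count + 1) between mice of the same diet, pooled over both diets, against the mean level over the 6 mice, for the 15275 genes tested (gray points) and the 10 members (purple). Fos, Atf3, Nr4a1 and Egr1 lie well above the bulk of genes of their level, at 0.90 to 1.31, and 44 genes with an SD over 2.5 are outside the plotted range.

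Leaving out mouse 3 of both diets, an alternative chosen after the values were seen, removed most of that spread but left only 2 mice per diet. Again 0 of the 10 members passed the threshold, while 287 genes did over all genes tested. The log2 fold change of Fos became -0.38 (95% interval -0.83 to 0.065, adjusted p = 0.369) and that of Egr1 -0.29 (95% interval -0.71 to 0.13, adjusted p = 0.457). That of Nr4a1 was 0.21 in place of 0.62 (95% interval -0.12 to 0.53), that of Jun 0.058 in place of 0.22 and that of Zfp36 0.24 in place of 0.39. Ier2 was at -0.30, Fosb at -0.29 and Dusp1 at 0.017. Atf3 stayed lower on the HFD, at -1.20 (95% interval -2.03 to -0.36, adjusted p = 0.145), and Junb higher, at 0.45 (95% interval 0.097 to 0.81, adjusted p = 0.184). Atf3 and Junb were the members whose intervals without these mice left out 0, and neither passed after adjustment over all genes. The 2 mice were left out for their high values in these same members. The intervals without them therefore understate the spread between mice, and no difference can be read from them. In the same fit 17.1% of all genes tested had an unadjusted p under 0.05 (limma).

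**Figure D3:**
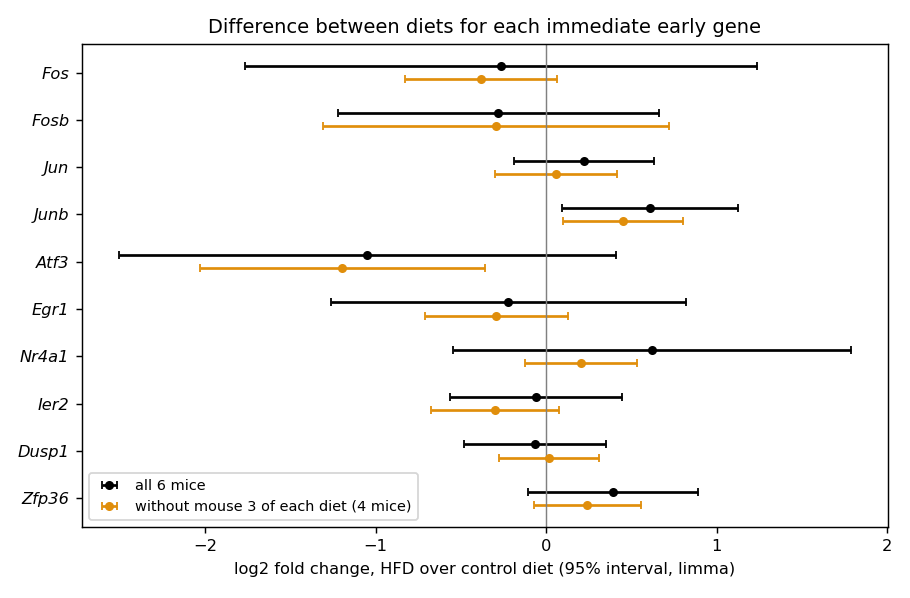
Log2 fold change of each member, HFD over control diet, with 95% intervals from limma, for all 6 mice (black) and without mouse 3 of each diet (orange, 2 mice per diet). With all 6 mice only the interval of Junb lies clear of 0 before adjustment for multiple testing, and the intervals of Fos and Nr4a1 shrink most when the 2 mice are left out.

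The promoters are shown because these genes are textbook examples of a shared signal reaching many genes through a few DNA elements. RefSeq promoter sequences of GRCm38.p6 were matched for 8 of the 10 members, and not for Egr1 and Ier2. For Atf3 the start used lies well inside the gene span given further below. The bases before the outer 5′ end of that span were not searched. Below are the 130 bases before the RefSeq start of the 3 members with a large step in mouse 3 (Fos, Atf3 and Nr4a1) and of Zfp36, and the 250 bases before the start of Dusp1, written 5′ to 3′ along the gene, with capitals marking the letters of a motif found.
Fos (chr12:85473760-85473889, plus strand): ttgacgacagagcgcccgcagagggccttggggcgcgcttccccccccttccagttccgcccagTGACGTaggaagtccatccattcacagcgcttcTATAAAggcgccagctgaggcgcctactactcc
Atf3 (chr1:191183334-191183463, minus strand): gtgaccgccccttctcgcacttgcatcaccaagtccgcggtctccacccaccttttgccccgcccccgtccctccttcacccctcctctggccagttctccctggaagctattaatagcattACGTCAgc
Nr4a1 (chr15:101266716-101266845, plus strand): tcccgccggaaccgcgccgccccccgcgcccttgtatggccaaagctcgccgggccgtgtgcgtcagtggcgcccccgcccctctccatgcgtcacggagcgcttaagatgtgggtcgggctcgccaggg
Zfp36 (chr7:28379229-28379358, minus strand): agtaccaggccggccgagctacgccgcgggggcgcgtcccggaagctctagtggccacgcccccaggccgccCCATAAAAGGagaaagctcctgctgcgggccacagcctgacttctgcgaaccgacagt
Dusp1 (chr17:26508473-26508722, minus strand): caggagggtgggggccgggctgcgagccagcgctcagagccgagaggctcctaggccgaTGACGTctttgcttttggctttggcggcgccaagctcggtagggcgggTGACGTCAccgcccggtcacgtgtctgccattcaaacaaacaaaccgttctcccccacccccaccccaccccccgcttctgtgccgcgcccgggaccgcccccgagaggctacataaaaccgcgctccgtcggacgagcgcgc

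The motifs were searched on both strands in the 250 bases before the start. The TATA box (TATAAA) was found in Fos alone, 33 to 28 bases before its start, and in 12.4% of all 32851 promoters in the table. The full cAMP response element (TGACGTCA), the site of CREB and ATF factors, was found in Dusp1 alone, 143 to 136 bases before the start, and in 1.55% of all promoters. Its shorter core (TGACGT), added after the promoters were seen and contained in the full site, was found in Fos (66 to 61 bases before the start), Atf3 and Dusp1, and in 6.47% of all promoters. The CArG box, the site of SRF, was found in Zfp36 alone, 58 to 49 bases before the start, and in 1.47% of all promoters. The exact letters of the AP-1 site (TGACTCA, of which TGAGTCA is the other strand) were in none of the 8 and in 4.46% of all promoters. Those of the EGR site (GCGTGGGCG) were in none of the 8 and in 0.536%. Variants of the AP-1 and EGR letters were not searched. Of the 4 genes with large steps, Nr4a1 held none of these letters in this window, and the SRF sites known farther upstream in some of these genes lie outside it.

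In the genome (GRCm38) the members are on different chromosomes except for Fosb and Zfp36 on chromosome 7 and Junb and Ier2 on chromosome 8. Fos is on the plus strand of chromosome 12 from 85473890 to 85477273, and Atf3 on the minus strand of chromosome 1 from 191170296 to 191218039. Nr4a1 is on the plus strand of chromosome 15 from 101266846 to 101274792, and Junb on the minus strand of chromosome 8 from 84976909 to 84978748. Exons of 4 members share bases with exons of a gene on the opposite strand in GENCODE M21, namely Jun with the antisense gene Junos, Junb with Prdx2, Dusp1 with Ergic1 and Zfp36 with Gm44710. The library kit keeps the strand, but whether the counting used it is not given in the sources used here, so reads in those shared bases are uncertain. Prdx2 had a mean of 4465 normalized counts and Ergic1 of 1164, and Junos of 17.6.

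The closest relatives of the members did not all follow them. Fosl2, another FOS protein of AP-1, had 670.0, 802 and 1172 normalized counts on the HFD and 518, 447 and 583 on the control diet. The diets did not overlap in Fosl2, but its log2 fold change of 0.74 ± 0.20 (SE) missed the threshold (adjusted p = 0.126), as did its 0.61 without mouse 3 of both diets (adjusted p = 0.083). Jund, a JUN protein that is mostly constitutive, was at a log2 fold change of -0.099 (adjusted p = 0.896), and Fosl1 at 0.0037 with 14.6 to 30.6 normalized counts. Jdp2, a bZIP repressor close to ATF3, had 0.26 (adjusted p = 0.738).

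Among the EGR and NR4A relatives, Egr2 had 34.2, 28.6 and 108 normalized counts on the HFD and 42.5, 21.9 and 56.8 on the control diet. Egr3 had 5.02, 11.2 and 51.1 on the HFD and 13.4, 4.79 and 28.4 on the control diet. Both were highest in HFD mouse 3 and next in control mouse 3, the order also seen in Nr4a1, Ier2 and Zfp36. Egr4 had at most 2.27 normalized counts in any library and was not tested. Nr4a3 had 91.4, 305 and 871 normalized counts on the HFD and 99.7, 117 and 128 on the control diet, and Nr4a2 49.2 to 95.4. Control mouse 3 was thus not high in Nr4a3, and the log2 fold change of Nr4a3 was 1.34 ± 0.60 (SE, adjusted p = 0.410) with all 6 mice and 0.63 ± 0.44 (SE, adjusted p = 0.498) without mouse 3 of both diets.

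Of the relatives of the 2 feedback genes, Dusp4 had 51.2, 103 and 94.3 normalized counts on the HFD and 28.0, 15.7 and 47.0 on the control diet. All HFD mice were above all control mice, with a log2 fold change of 1.49 ± 0.42 (SE, adjusted p = 0.154), and of 1.74 ± 0.48 (SE, adjusted p = 0.102) without mouse 3 of both diets. Dusp2 had 5.10 to 29.5 normalized counts, with -0.55 as its log2 fold change (adjusted p = 0.797). Zfp36l1 and Zfp36l2, which bind the same AU-rich elements as ZFP36, had log2 fold changes of 0.019 and -0.086 (adjusted p = 0.977 and 0.823). Ier5, a relative of IER2, had 374, 430.4 and 1278 normalized counts on the HFD and 731, 474 and 661 on the control diet, so that HFD mouse 3 was highest and control mouse 3 lay below control mouse 1. Its log2 fold change was -0.052 with all 6 mice and -0.55 (adjusted p = 0.199) without mouse 3 of both diets.

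Beyond the members, 149 genes of the same response were listed in 9 groups, and 145 were tested. Of these, 6 passed the threshold, all higher on the HFD and none lower, beside 74 higher and 40 lower over all genes tested. The 5 described here were Atf5 and Mafg among 18 other FOS, JUN, ATF and MAF factors, Klf10 and Ptgs2 among 38 other immediate early genes, and Hsph1 among 10 heat-shock genes. edgeR called 4 of the 145 and DESeq2 called 17, against 0.57% and 3.08% of all genes tested. The median log2 fold change was 0.14 over the 145 genes, with 101 higher and 44 lower, against 0.0049 over all genes tested, with 7761 higher and 7514 lower. At an unadjusted p under 0.05 there were 31 higher and 3 lower of the 145, and 1017 higher and 847 lower of all 15275 genes tested.

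Ptgs2, the inducible cyclooxygenase, had 126, 151 and 192 normalized counts on the HFD and 48.1, 36.3 and 77.6 on the control diet, and rose with a log2 fold change of 1.56 ± 0.30 (SE, adjusted p = 0.048). Every HFD mouse was above every control mouse in Ptgs2. Hsph1, a large heat-shock protein, rose with a log2 fold change of 1.11 ± 0.19 (SE, adjusted p = 0.034), Atf5, a stress-induced bZIP factor, with 1.01 ± 0.16 (SE, adjusted p = 0.023), Klf10, an early gene of TGF-beta signaling, with 0.88 ± 0.15 (SE, adjusted p = 0.031), and Mafg, a small MAF partner of NRF2, with 0.56 ± 0.11 (SE, adjusted p = 0.0497). The fold changes held with 1 mouse left out at a time, at log2 values of 0.83 to 1.14 for Atf5, 0.54 to 0.61 for Mafg, 0.74 to 0.99 for Klf10, 1.32 to 1.85 for Ptgs2 and 0.87 to 1.3 for Hsph1, but most calls did not. In those fits 14 to 342 genes passed over all genes tested, and Atf5 and Hsph1 passed in 2 of 6 fits, Mafg and Klf10 in 1 and Ptgs2 in 0. Without control mouse 2, HFD mouse 2 or control mouse 3, 0 of the 145 passed, and the adjusted p of Atf5 over the 6 fits ranged from 0.0098 to 0.088. Without mouse 3 of both diets, Atf5, Klf10, Ptgs2 and Hsph1 passed (adjusted p = 0.0072 to 0.021) and Mafg did not (adjusted p = 0.075).

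By role, the kinases that act on early genes (MEK, ERK, JNK, p38, RSK and MSK genes) had a median log2 fold change of -0.038 and 0 of 21 passed (2 at an unadjusted p under 0.05), with the smallest p-values in Rps6ka2 (-0.40, adjusted p = 0.196) and Map2k6, the p38 activator MKK6 (-1.14, adjusted p = 0.252). The SRF, TCF and CREB factors had a median of 0.12 and 0 of 13 passed (0 at an unadjusted p under 0.05), Mkl2 and Crem being first with 0.34 each (adjusted p = 0.484 for both). The other EGR and NR4A factors and the NAB corepressors that restrain EGR1 had a median of 0.31 and 0 of 6 tested passed (1 at an unadjusted p under 0.05), with Nab1 at 0.30 (adjusted p = 0.370). The DUSP, Sprouty and SPRED inhibitors had a median of 0.041 and 0 of 15 passed (1 at an unadjusted p under 0.05), with Dusp16 at 0.32 (adjusted p = 0.430) after Dusp4. The ZFP36 proteins and mRNA decay factors had a median of -0.040 and 0 of 11 passed (0 at an unadjusted p under 0.05), with Hnrnpd at -0.18 (adjusted p = 0.634) and Cnot1 at 0.14 (adjusted p = 0.710). In the list of other FOS, JUN, ATF and MAF factors 17 of 18 genes were higher on the HFD, with a median of 0.37, and in the list of other immediate early genes 28 of 38, with a median of 0.35. At an unadjusted p under 0.05 these lists had 7 higher of 18, and 14 higher and 1 lower of 38. The AP-1 and EGR1 targets had a median of 0.20, with Timp1, an inhibitor of matrix proteases, at 0.93 (adjusted p = 0.083), and 4 of 13 higher at an unadjusted p under 0.05. The heat-shock genes had a median of 0.38, with Hsp90aa1 at 0.90 (adjusted p = 0.139) after Hsph1, and 4 of 10 higher at an unadjusted p under 0.05. Without mouse 3 of both diets the medians were smaller, at 0.25 for the other FOS, JUN, ATF and MAF factors, 0.20 for the other immediate early genes, 0.11 for the targets and 0.043 for the heat-shock genes, and 0.075 over the 142 genes then tested, of which 7 passed.

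**Figure D4:**
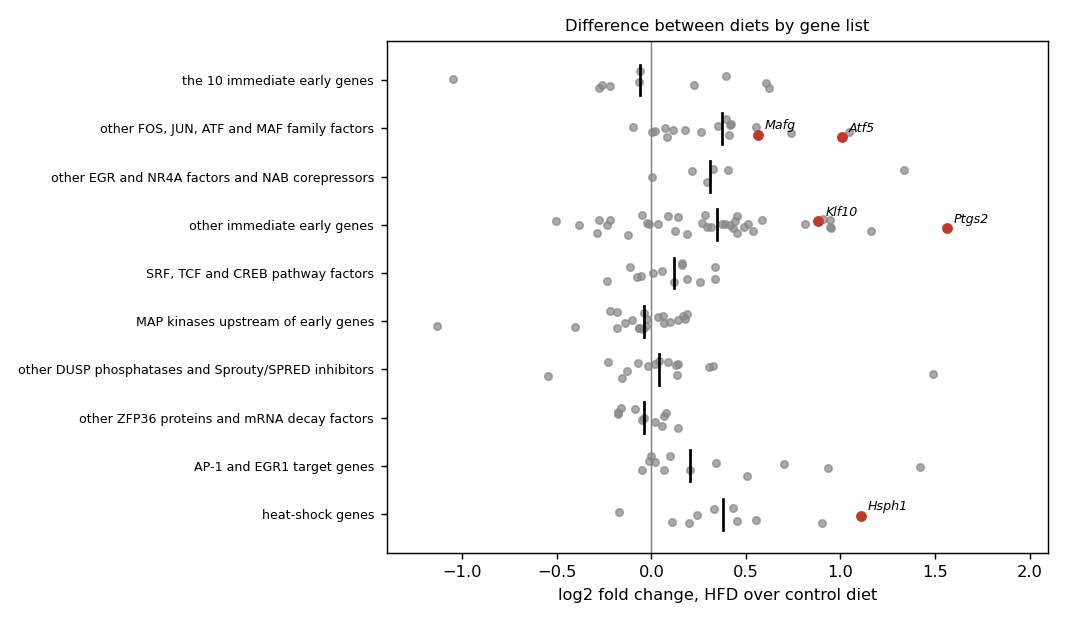
Log2 fold change, HFD over control diet, of the tested genes of the members and of the 9 other lists, 1 gene not being reported, with the median of each list as a black bar and the 5 described genes past the threshold in red with their names. The members lie around a median of -0.063 with none past the threshold, while the 5 named genes of the other lists are all higher on the HFD.

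The 2 mice that were high in the members differed in the other lists. HFD mouse 3 held the highest value in 24 of the 38 other immediate early genes and control mouse 3 in 1, where the members were split 5 and 5. Over all genes tested these shares were 20.3% for HFD mouse 3 and 14.9% for control mouse 3. Among the heat-shock genes HFD mouse 3 was highest in 9 of 10 and control mouse 3 in 0. Hspb1 had 1973, 2959.5 and 8483 normalized counts on the HFD and 3206, 2324 and 2718 on the control diet. Summed over the 10 heat-shock genes, HFD mouse 3 had 79847 normalized counts, the other HFD mice 46773 and 47337, and the control mice 40677 to 47732. Control mouse 3, at 41064, was thus high in Fos, Atf3 and Egr1 but not in the heat-shock genes.

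**Figure D5:**
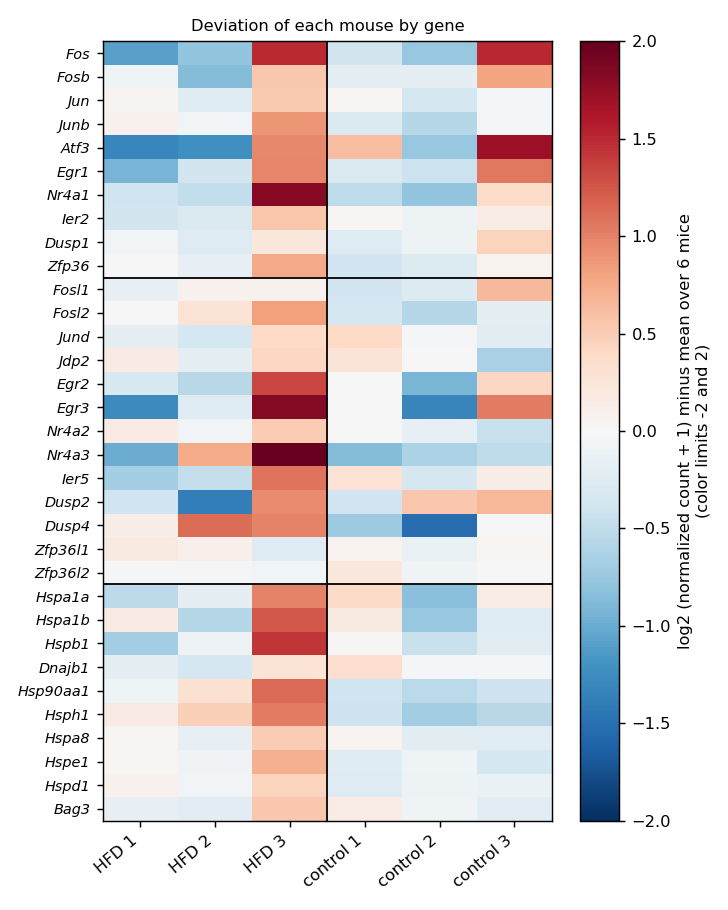
Deviation of each mouse from the mean over the 6 mice, in log2(normalized count + 1), for the 10 members (top), their closest relatives (middle) and the heat-shock list (bottom), with red above and blue below the mean and color limits at -2 and 2. HFD mouse 3 is red through most of the 3 blocks. Among the members control mouse 3 is most red in Atf3, Fos, Egr1 and Fosb and pale in Jun, Junb, Zfp36 and Ier2. In the heat-shock genes it is pale or blue.

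Markers of other cell types also differed between these libraries. The summed level of 6 atrial cardiomyocyte markers was 525029 normalized counts in HFD mouse 3 and 290364 and 291350 in the other HFD mice, and 446328 to 486997 in the control mice. Nppa, Myl4 and Myl7 made up most of these sums, and the 6 markers did not move alike. Relative to the mean of the other 2 HFD mice, HFD mouse 3 was at 1.90-fold in Nppa, 1.76-fold in Myl4, 2.01-fold in Myl7 and 2.29-fold in Bmp10. It was at 1.19-fold in Tbx5 and 0.91-fold in Sln. The 6 adipocyte markers summed to 5879 in HFD mouse 3, against 6755 and 10686 in the other HFD mice, and to 3232 in control mouse 3, against 4823 and 5563 in the other control mice. Fabp4 made up most of these sums, and while control mouse 3 was the lowest control mouse in all 6 markers, HFD mouse 3 was the lowest HFD mouse in 2 and HFD mouse 2 in 4. The 6 lymphocyte markers summed to 435 in HFD mouse 3 and 149 to 265 elsewhere. The 6 neutrophil markers summed to 30.2 to 38.3 normalized counts on the control diet and 55.1 to 86.4 on the HFD. Ly6g was below 3 reads in each library. The 5 ventricular markers were highest in control mouse 2, at 17448 against 6921 to 9918 in the others. Given as the range on the control diet and then on the HFD, endothelial markers ranged from 15191 to 15696 and 17927 to 20253 normalized counts, fibroblast markers from 34596 to 39787 and 35769 to 35898, smooth muscle and pericyte markers from 9867 to 11521 and 12077 to 12242, macrophage markers from 7070 to 9234 and 9370.2 to 11049, and red blood cell markers from 1515 to 2234 and 1383 to 2243. The part of these differences in the levels of the members was not tested.

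The 5 genes whose levels ran most like the mean scaled profile of the members over the 6 libraries were Elp2, Rab1a, Wdr82, Trim34a and Mphosph10. Their Pearson correlations with that profile were from 0.981 to 0.999, taken as the highest of 15265 genes over 6 libraries. All genes of a library share its depth and scaling, and the correlations are a description only. Elp2, a subunit of the Elongator complex, had 532, 518 and 688 normalized counts on the HFD and 545, 518 and 623 on the control diet. Its highest values were in mouse 3 of each diet, as in the members, with a far smaller step, and none of the 5 was an early response gene of the lists. Their log2 fold changes between the diets were from 0.0016 to 0.075 (adjusted p = 0.925 to 0.998).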

How the data were processed

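The authors aligned single-end reads from a directional library kit with STAR to GRCm38 (Ensembl), kept uniquely mapped reads and assigned them to genes with Salmon. The submitters' processing notes also name FastQC and DESeq2. The deposited signal is the authors' read count divided by 1 DESeq2 size factor per library, here called normalized counts. Whole reads (within 0.001) were recovered for 100% of values. The authors' own log2 fold changes, p-values and scores were not used.

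Upper-case gene names were matched without regard to case. limma 3.58.1 in R 4.3.3 (lmFit, eBayes with a variance trend) was run on log2(normalized count + 1) for the 15275 of 24679 genes with a mean of at least 10, on all 6 samples without covariates, p-values being adjusted by Benjamini-Hochberg over all genes tested (threshold 0.05). Fold changes on this scale understate those of low genes. edgeR 4.0.16 and DESeq2 1.42.0 on recovered reads, other scalings, filters and pseudocounts, a replicate block and fits leaving mice out were alternatives, and scripts were tested on simulated data. All 10 members were named and, of the other lists, the genes past the threshold, the closest relatives of a member and the 2 with the smallest p. Members and lists were chosen with earlier results of these data known. Of the genes of these lists that the rule names, 1 is not reported here.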

Additional observations from a re-analysis of the deposited data

How the results depend on the processing

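The count of members past the threshold was 0 in the main analysis and in every alternative run, and the lowest adjusted p of any member was 0.110 (Junb, DESeq2). The count of all genes past it was 114, and became 0 without the variance trend, 470 with DESeq2, 69 when a log2 fold change past 1 was also asked, 287 without mouse 3 of both diets and 14 to 342 with 1 mouse left out. The other early-response and pathway genes past it numbered 6, and became 0 without the variance trend, 17 with DESeq2 and 0 to 7 with 1 mouse left out. Of 170 log2 fold changes of members under alternatives, 157 kept their direction and 13 reversed, all of them in fits that left mice out. With 1 mouse left out the log2 fold change ranged from -1.07 to 0.43 for Fos, -0.62 to 0.085 for Fosb, -0.76 to 0.25 for Egr1, -0.35 to 0.11 for Ier2, -0.21 to 0.14 for Dusp1 and -0.13 to 1.02 for Nr4a1, and without mouse 3 of both diets it was 0.017 for Dusp1. Its sign was the same in all fits for Atf3 (-1.79 to -0.45), Junb (0.32 to 0.79), Zfp36 (0.11 to 0.57) and Jun (0.021 to 0.40), with a value near 0 for Jun without HFD mouse 3.

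The labels do not say whether the replicate numbers of the titles pair the samples. The deviations of same-numbered mice from their group means correlated at 0.116, -0.027 and -0.0039 over genes. Those of mice with different numbers correlated at -0.147 to 0.160. Correlations over all genes cannot exclude a pairing that shows in few genes. With the replicate block 157 genes passed the threshold, 0 of the 10 members did and 7 of the other early-response genes did, and 4 members had an unadjusted p under 0.05 (Junb, Zfp36 and Nr4a1 higher on the HFD, Atf3 lower), against 11.2% of all genes in that fit. The 3 samples per diet and the spread between mice limit what could be detected in Fos, Atf3, Egr1 and Nr4a1. Fosb had 22 to 67 reads per library.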

Other observations

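Among the other immediate early genes, those below were picked for a wide step in HFD mouse 3 after their values were seen. They are not the only ones. Npas4, at 5.02 to 53.4 normalized counts, was 7.01-fold above the mean of the other 2 HFD mice in HFD mouse 3. In control mouse 3 it was 1.98-fold above the mean of the other 2 control mice. Cyr61, a matricellular protein gene downstream of SRF and YAP, had 454, 444 and 2405 normalized counts in HFD mice 1, 2 and 3 and 729, 548 and 1270.1 in control mice 1, 2 and 3. Btg2, an antiproliferative early gene, had 712, 749 and 2391 on the HFD and 612, 570.1 and 1198 on the control diet. In both genes mouse 3 was the highest of each diet, as in Fos and Egr1. Gadd45g, a stress gene, had 246, 272 and 1645 on the HFD and 252, 219.7 and 301 on the control diet, with a step in HFD mouse 3 and a small one in control mouse 3. None passed the threshold between diets (limma, adjusted p = 0.993 for Npas4, 0.994 for Cyr61, 0.672 for Btg2 and 0.577 for Gadd45g).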
